A study of Mus musculus with 9 samples.

Results

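The miR-34 family and miR-335 are followed here across the glomeruli of healthy mice and of mice with glomerulonephritis (GN). The members were the probes named miR-34a, miR-34b, miR-34c or miR-335, with any arm suffix and without the star that marks a passenger strand. They were 6 of the 1135 miRNA probes of the array: mmu-miR-34a, mmu-miR-34b-5p, mmu-miR-34b-3p, mmu-miR-34c, mmu-miR-335-5p and mmu-miR-335-3p, written without the mouse prefix from here on. Glomeruli had been isolated with magnetic beads, and each mouse gave the RNA for its own 3D-Gene array, read in 1 colour, with 3 arrays in each group. All mice were female. Controls were of strain C57BL/6 and 9 months old, early GN mice were of strain B6.MRLc1 and 9 months old, and late GN mice were of strain B6.MRLc1 and 14 months old. B6.MRLc1 is a congenic line that carries a stretch of MRL/MpJ chromosome 1 on the C57BL/6 background and develops immune-complex glomerulonephritis with age. The titles of the samples set the groups. The strain field of the early GN samples reads C57BL/6, and the design text of the series gives the ages of the stages the other way round, whereas the titles, the ages and disease states of the samples and the methods give the groups used here. Stage, strain and an age gap of 5 months cannot be told apart between late GN and control, nor can strain and disease between early GN and control.

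MicroRNAs are short RNAs that lower the output of messenger RNAs through pairing with their seed, bases 2 to 8. The miR-34 family is known as a direct target of the tumour suppressor p53 and acts in cell cycle arrest and senescence. miR-34a is transcribed alone, whereas miR-34b and miR-34c come from a shared transcript and are, with the related miR-449 family, abundant in multiciliated epithelium. miR-335 lies in the imprinted gene Mest, and in ageing rat mesangial cells miR-34a and miR-335 were described to repress mitochondrial antioxidant enzymes.

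RefSeq (GRCm38.p6) gave a mature sequence for 5 of the 6 members. They are shown because the seed groups the probes: miR-34a and miR-34b-5p share it with miR-449a and miR-449c, while the opposite arms of miR-34b and miR-34c share another. Capitals mark the seed.
miR-34a (chr4:150068473-150068494, plus strand): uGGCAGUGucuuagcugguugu
miR-34b-5p (chr9:51103610-51103632, minus strand): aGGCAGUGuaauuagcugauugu
miR-449a (chr13:113037549-113037570, plus strand): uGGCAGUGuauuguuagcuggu
miR-449c (chr13:113036008-113036028, plus strand): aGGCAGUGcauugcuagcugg
miR-34b-3p (chr9:51103574-51103595, minus strand): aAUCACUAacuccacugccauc
miR-34c* (listed as miR-34c-3p, chr9:51103044-51103065, minus strand): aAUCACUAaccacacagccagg
miR-335-5p (chr6:30741314-30741336, plus strand): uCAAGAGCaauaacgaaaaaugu
miR-335-3p (chr6:30741354-30741375, plus strand): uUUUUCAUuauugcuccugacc
Of 1679 mature mouse miRNAs in the table, 3 others carried the seed GGCAGUG of miR-34a (miR-34c and miR-449b, known for the same seed, were not in this count). The seed of miR-34b-3p was carried by 1 other, and no other carried either seed of miR-335. Counted from the 5′ end without gaps, miR-34a and miR-34b-5p had the same base at 11 of 22 positions. That count understates their likeness, since past the seed most bases match once a sequence is shifted by a base. Cross-hybridization between probes of the family was not tested. Mir34b and Mir34c lie 451 bases apart within the spans of Btg4 and Hoatz, Mir335 lies within Mest, and Mir34a lies within no other gene of the table.

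The deposited values are fluorescence intensities that the authors normalized so that the median of all values listed on an array is 25, and a probe that was not detected has no value. The number of listed probes differed between arrays, from 588 to 595 in control, 428 to 738 in early GN and 693 to 755 in late GN. Values on all 9 arrays existed for 411 miRNAs. Of the 1135 probes of the array 1096 were for mouse miRNAs, and the 411 include some viral probes, with the prefixes mcmv and mghv. Relative to the mean of the controls, the typical miRNA of this set (median, log2 scale) stood at -1.03, -0.61 and 0.51 on early GN arrays 1, 2 and 3 and at 0.33 to 0.44 on the late GN arrays, so the deposited scale moved whole arrays. For this reason each value is also given after shifting the arrays to the same median of these 411 miRNAs, called a common median below. On that scale the changes in late GN fell into 2 broad groups, 1 on each side, with only 38 of 411 log2 fold changes within 0.2 of 0, against 105 in early GN (plot of the distribution).

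Of the 6 members, 4 were listed on all 9 arrays: miR-34a, miR-34b-5p, miR-34c and miR-335-5p. miR-34b-5p and miR-34c were lower in late GN than in control on every array, and so was miR-335-5p, whereas miR-34a was not. As deposited, 21.7% of all miRNAs lay below every control array in late GN and 49.1% above, with miR-34a among the latter. On the deposited scale no member passed the test in any comparison. Once arrays had a common median, 3 of the 4 fell in late GN, to 0.39 times control for miR-34b-5p, 0.40 times for miR-335-5p and 0.47 times for miR-34c, on a scale where 29.9% of all miRNAs fell and 32.1% rose. In early GN 2 of the 4 fell, miR-34b-5p and miR-34c, with 3.89% of all miRNAs fallen. These calls depended on the scaling of the arrays and on which arrays set the estimate of spread, as given below. For miR-34b-5p in late GN the deposited log2 fold change was -1.04 with either set of arrays. Its SE was 0.44 in the fit of all groups (limma, adjusted p = 0.12). In the fit of only the groups compared, the SE was 0.155 (limma, adjusted p = 0.00045).

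**Figure D1:**
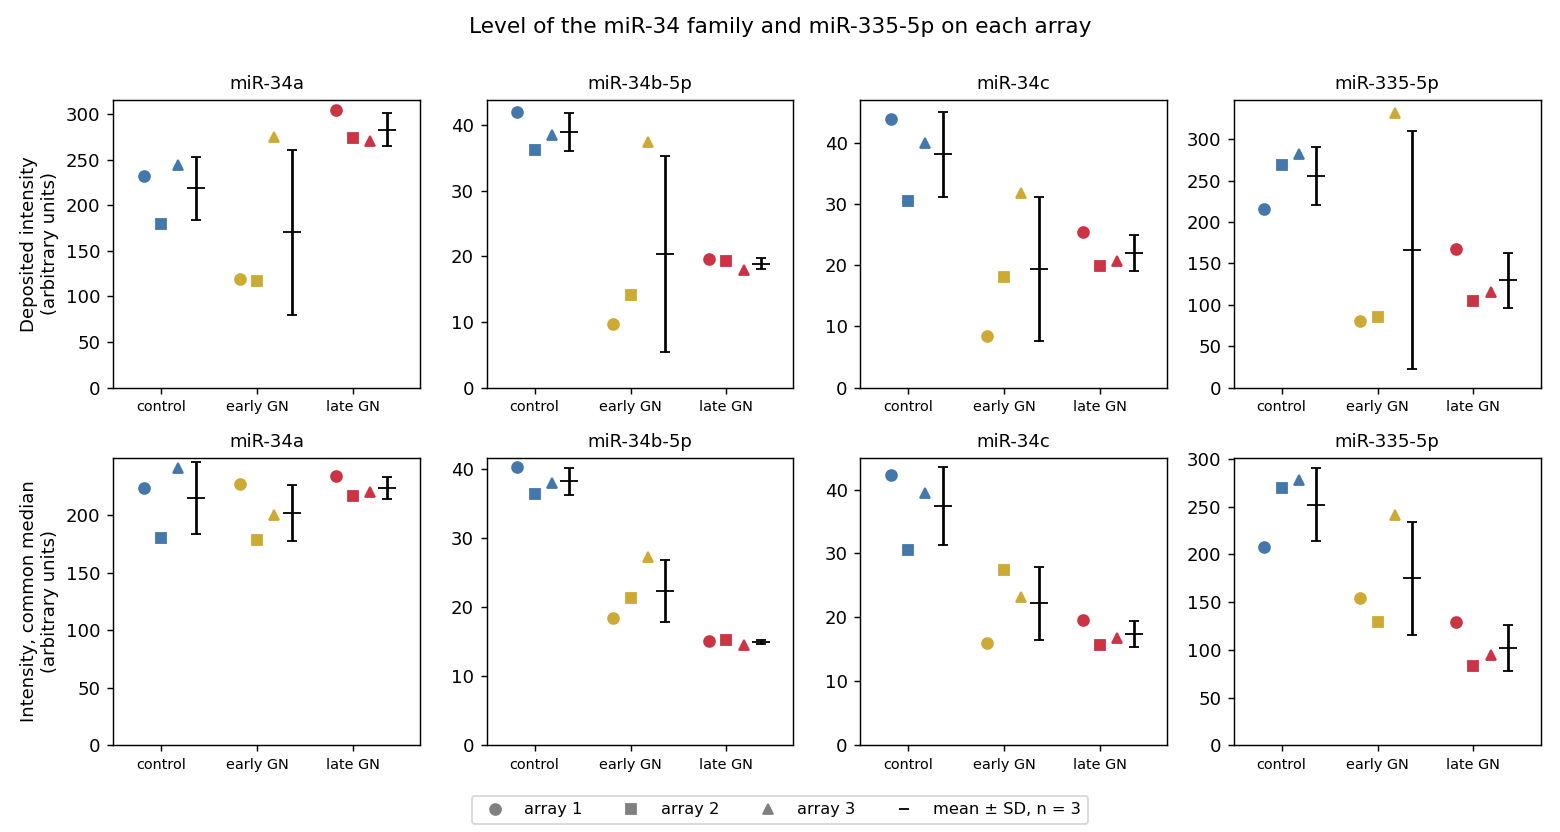
Intensity of the 4 members listed on all 9 arrays (y axes, arbitrary units, from 0) on each array of control, early GN and late GN mice, as deposited (upper row) and with a common median (lower row). Symbols are the 3 arrays of a group and bars are mean ± SD. Early GN array 3 stands above arrays 1 and 2 in each upper panel, and the late GN arrays of miR-34b-5p lie between 14.6 and 15.2 in the lower row, below the control range of 36.5 to 40.4.

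miR-34a is the member whose induction by p53 is best described. Its deposited values were 232, 179 and 245 on the control arrays, 119, 117 and 274 on the early GN arrays and 304, 274 and 271 on the late GN arrays. All late GN arrays were above all control arrays, and the early GN arrays lay on both sides of the control range. The group means were 219 ± 34.6 in control, 170.1 ± 90.2 in early GN and 283 ± 18.3 in late GN (SD, n = 3 each). With a common median the values were 223, 180.4 and 241 in control, 227, 178 and 199.8 in early GN, with 234, 217 and 220.0 in late GN, and the 3 groups overlapped. The log2 fold change in late GN was 0.38 (SE 0.44, limma, adjusted p = 0.54) on the deposited scale and 0.07 (SE 0.18, limma, adjusted p = 0.73) with a common median. The early GN change was -0.47 (limma, adjusted p = 0.60) and -0.09 (limma, adjusted p = 0.75). miR-34a ranked 198th of 411 from the lowest change in late GN and 179th in early GN, close to the middle of all miRNAs.

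miR-34b-5p, from the locus shared with miR-34c, had deposited values of 42.0, 36.3 and 38.6 on the control arrays, 9.68, 14.1 and 37.4 on the early GN arrays and 19.6, 19.2 and 17.9 on the late GN arrays. The late GN arrays were close together and below every control array, and early GN array 3 lay inside the control range. The values at a common median were 40.4, 36.5 and 38.1 in control, 18.5, 21.3 and 27.2 in early GN, with 15.1, 15.2 and 14.6 in late GN. On this scale the 3 groups did not overlap, and control was highest and late GN lowest. The log2 fold change in late GN was -1.04 (SE 0.44, limma, adjusted p = 0.12) on the deposited scale and -1.35 (SE 0.18, limma, adjusted p = 0.0011) with a common median. In early GN it was -1.18 (limma, adjusted p = 0.21) as deposited and -0.79 (SE 0.18, limma, adjusted p = 0.021) with a common median. The probe had the 3rd lowest change of 411 in late GN and the 12th lowest in early GN.

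miR-34c had deposited values of 43.9, 30.4 and 40.1 on the control arrays, 8.38, 18.0 and 31.8 on the early GN arrays and 25.4, 19.8 and 20.7 on the late GN arrays. Late GN was below control on every array, and early GN array 3 was again inside the control range. At a common median they were 42.2, 30.6 and 39.5 in control, 16.03, 27.4 and 23.2 in early GN, with 19.6, 15.7 and 16.9 in late GN. Neither GN group overlapped control on this scale, and the GN groups overlapped each other. The log2 fold change in late GN was -0.79 (SE 0.44, limma, adjusted p = 0.20) as deposited and -1.10 (SE 0.22, limma, adjusted p = 0.0031) with a common median. In early GN it was -1.16 (limma, adjusted p = 0.22) and -0.78 (SE 0.22, limma, adjusted p = 0.047).

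miR-335-5p, the arm of the Mest-hosted hairpin that was detected throughout, had deposited values of 216, 268 and 282 on the control arrays, 80.9, 84.8 and 331 on the early GN arrays and 167, 105 and 116 on the late GN arrays. Early GN array 3 was the highest of all 9 arrays, and the late GN arrays were below every control array. After scaling to a common median they were 208, 269.7 and 278 in control, 154.7, 128.7 and 242 in early GN, with 128.8, 83.2 and 94.3 in late GN. The log2 fold change in late GN was -1.001 (SE 0.44, limma, adjusted p = 0.13) as deposited and -1.32 (SE 0.25, limma, adjusted p = 0.0026) with a common median. In early GN it was -0.95 (limma, adjusted p = 0.26) and -0.57 (SE 0.25, limma, adjusted p = 0.13), and it passed on neither scale. The probe had the 5th lowest change of 411 in late GN and the 44th lowest in early GN.

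**Figure D2:**
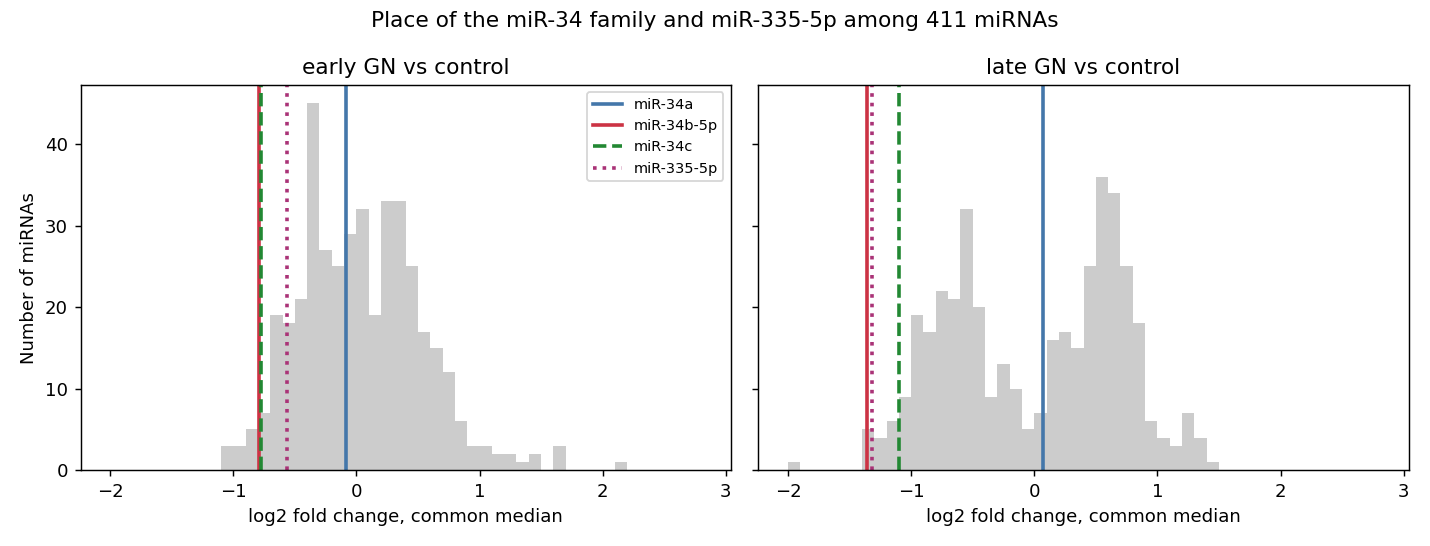
Number of miRNAs (y axis) at each log2 fold change against control with a common median (x axis), for the 411 miRNAs listed on all 9 arrays, in early GN and late GN. Vertical lines mark the 4 members: in late GN miR-34b-5p (-1.35), miR-335-5p (-1.32) and miR-34c (-1.10) lie in the lower tail and miR-34a (0.07) lies between the 2 groups of miRNAs.

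Counted over the comparisons on the deposited scale, 0 of 4 members passed the limma test (adjusted p under 0.05) when early GN was set against control, where 0.243% of all 411 miRNAs passed. In late GN against control it was 0 of 4 with 4.14% of all, in late GN against early GN 0 of 4 with 1.7% of all, and in both stages together against control 0 of 4 with 0.73% of all. The tests named in the study's methods, on the same values, differed: after Benjamini-Hochberg adjustment the methods' t-test called 3 members lower in late GN, as it did 14.1% of all miRNAs, and Dunnett's test called 0. Before adjustment in limma, 3 of the 4 were lower in early GN at a p of 0.05 (13.6% of all miRNAs), 2 in late GN (2.92%) and 3 in both stages together (8.03%). In late GN 3 of 4 members lay below all control arrays, as did 21.7% of all miRNAs, and 1 of 4 lay above all of them, as did 49.1%. The median log2 fold change of the 4 stood at -1.06 for early GN and -0.89 for late GN, beside -0.38 and 0.45 over all 411.

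With a common median, 2 of 4 members fell in early GN, where 3.89% of all miRNAs fell and 6.81% rose. In late GN 3 of 4 fell, where 29.9% of all miRNAs fell and 32.1% rose. Both stages together gave 3 of 4 fallen members, with 26.8% of all miRNAs fallen. Late GN against early GN gave 0 of 4, with 0.243% of all miRNAs fallen, and 2 members were lower before adjustment, as were 15.3% of all miRNAs. Groups did not overlap, with GN lower, for 2 members in early GN (23.4% of all miRNAs), 3 in late GN (35.5%), 2 over both stages (21.4%) and 1 in late GN against early GN (18.5%). Calls were thus common among all miRNAs of late GN on this scale. The median log2 fold change of the 4 stood at -0.67 for early GN and -1.21 for late GN, beside 0.01 and 0.13 over all 411. Both stages were set against the same control arrays.

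For 3 arrays against 3, the lowest p of the exact permutation test over arrays (2-sided) is 0.1. Comparing both stages together with control, 6 arrays against 3, the exact test gave miR-34b-5p p = 0.048 as deposited and 0.024 with a common median, the smallest value the test allows. miR-34c gave the same values, miR-335-5p gave 0.095 and 0.048, and miR-34a gave 0.83 and 0.9. After Benjamini-Hochberg adjustment over 16 tests on each scale, the exact p of miR-34b-5p was 0.23 and 0.18.

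Between late GN and early GN, miR-34b-5p differed by 0.14 log2 units as deposited and by -0.56 with a common median (limma, adjusted p = 0.82 and 0.12). miR-34c differed by 0.37 and -0.32, and miR-335-5p by -0.05 and -0.75, again with no adjusted p under the threshold (limma). For miR-34a the difference was 0.85 as deposited (limma, adjusted p = 0.16) and 0.15 with a common median (limma, adjusted p = 0.61).

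The deposited result depended on early GN array 3. Without it, all 4 members were called lower in early GN than in control on the deposited scale, as were 56.4% of all miRNAs, whose median log2 fold change was then -0.81. The members had log2 fold changes of -0.88 for miR-34a, -1.74 for miR-34b-5p, -1.62 for miR-34c and -1.62 for miR-335-5p (limma, adjusted p = 0.0044, 0.00065, 0.0014 and 0.0007). All 4 were then also called higher in late GN than in early GN, by 0.61 to 1.26 log2 units, as were 91.5% of all miRNAs with a median of 1.09. Against control, 3 were called lower in late GN, with 13.6% of all miRNAs. The change of miR-34a in early GN was thus close to that of the typical miRNA. With a common median and without each array in turn, miR-34b-5p, miR-34c and miR-335-5p were called lower in late GN every time, with a highest adjusted p of 0.0078, 0.017 and 0.016 (limma). In early GN the call of miR-34c held only without early GN array 3, and that of miR-34b-5p without 5 of the 9 arrays. Without early GN array 3, miR-335-5p was called as well (-0.82, limma, adjusted p = 0.031), which made 3 of 4 called, beside 5.84% of all miRNAs. Leaving out any other array gave 0 or 1 called.

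Over 6 scalings of the arrays, miR-34b-5p kept a negative log2 fold change in late GN, from -1.85 to -0.33, and passed in 4. miR-335-5p ran from -1.43 to -0.76 and passed in 4, and miR-34c ran from -1.10 to -0.21 and passed in 3. Of the 6 scalings, the deposited scale and the spike controls gave no call. miR-34a ran from -0.09 to 0.42 and passed in none, so its direction in late GN depended on the scaling. In early GN miR-34b-5p passed in 3 scalings, miR-34c in 1 and the other two members in none.

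**Figure D3:**
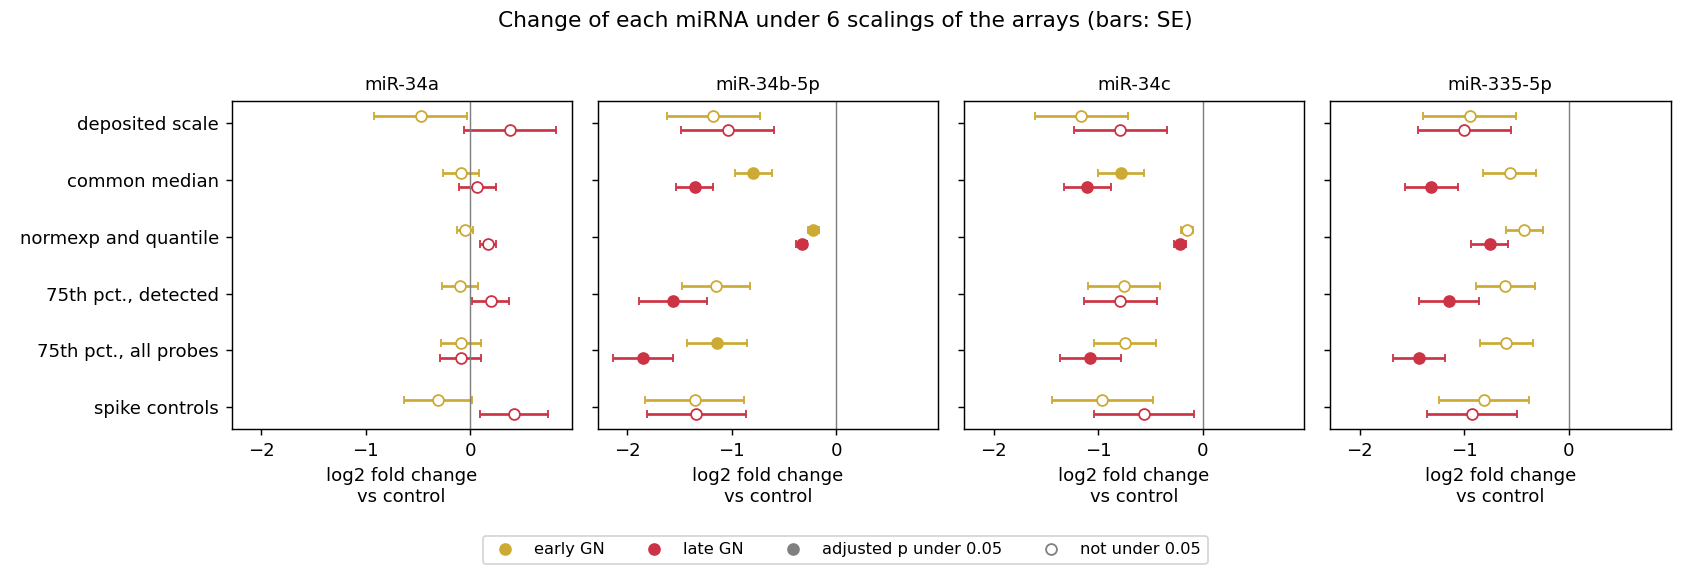
Log2 fold change against control (x axis, bars are SE) of each member under 6 scalings of the arrays (rows), for early GN and late GN, with filled points where the adjusted p of limma was under 0.05. miR-34b-5p, miR-34c and miR-335-5p lie below 0 in each row at both stages, while miR-34a lies from -0.09 to 0.42 in late GN and normexp with an offset of 50 shrinks the dim probes.

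A control array and an early GN array, control array 3 and early GN array 1, had been hybridized on the same slide, though scanned at different gains. Within that slide and with a common median, early GN was lower by 1.04 log2 units for miR-34b-5p, by 1.30 for miR-34c and by 0.85 for miR-335-5p, while miR-34a differed by -0.09 and the median of all miRNAs by -0.06. This is a single pair of arrays without a test. On early GN array 1 the spots of miR-34b-5p and miR-34c stood only 1.37 and 1.66 SDs of the blank spots above their mean. These were the lowest of the 9 arrays for each probe, so the size of these differences rests on signals near the background. Late GN arrays shared no slide with control. Each of these groups lay on 2 slides, and with slide as a random block miR-34b-5p in late GN was at -1.08 as deposited and -1.33 with a common median (limma, adjusted p = 0.19 and 0.00017). The slide correlation of that fit was estimated at 0.124 as deposited and at -0.342 with a common median, and a negative value makes the SE between such groups smaller.

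Ratios between members of the same array do not depend on how arrays are scaled, although the size of a ratio also carries the brightness of each probe. These ratios were chosen after the values were seen. miR-34a over miR-34b-5p was 5.53, 4.94 and 6.34 on the control arrays, 12.3, 8.35 and 7.34 on the early GN arrays and 15.5, 14.2 and 15.1 on the late GN arrays. The groups did not overlap and lay in the order control, early GN, late GN. On the scanner signal minus the blank mean, both GN groups stayed above control, but they overlapped each other, with 22.4 on early GN array 1 and 18.0 to 22.8 in late GN. For miR-34a over miR-34c the ratio was 5.28, 5.89 and 6.10 in control, 14.2, 6.51 and 8.63 in early GN, with 11.9, 13.8 and 13.1 in late GN. Every GN array was above every control array. How much of a ratio each member carries depends on the scaling. With a common median miR-34a was at 0.07 log2 units in late GN, so the ratios there mainly carry the other member. With the spike controls miR-34a was at 0.42, beside -1.34 for miR-34b-5p and -0.56 for miR-34c. With a common median, 35.5% of all miRNAs lay below every control array in late GN, 23.4% in early GN and 21.4% in both stages. How many miRNAs would give a separated ratio with miR-34a was not counted.

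miR-34a over miR-335-5p was 1.07, 0.669 and 0.867 in control, 1.47, 1.38 and 0.827 in early GN, with 1.82, 2.60 and 2.33 in late GN. Late GN was above both other groups, and early GN overlapped control. The rise of the ratio from control to late GN was 1.42 log2 units with miR-34b-5p, 1.17 with miR-34c and 1.38 with miR-335-5p. In contrast, miR-34b-5p over miR-34c, the 2 members of the shared locus, lay between 0.956 and 1.19 in control. It was 0.779 to 1.18 in early GN, while late GN lay at 0.770 to 0.970, with overlap between all groups. On the scanner signal minus the blank mean this ratio was 1.13, 1.28 and 1.0 in control. In late GN it was 0.549, 0.524 and 1.0, so these groups met only at 1.0. Whether the 2 members moved alike thus depended on the handling of the background. The exact permutation p of both stages against control was 0.024 for miR-34a over miR-34b-5p and over miR-34c, the smallest possible, and 0.071 over miR-335-5p. For 3 arrays against 3 it was 0.1 where groups did not overlap. After adjustment over 24 tests of 6 pairs no exact p was below 0.24.

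**Figure D4:**
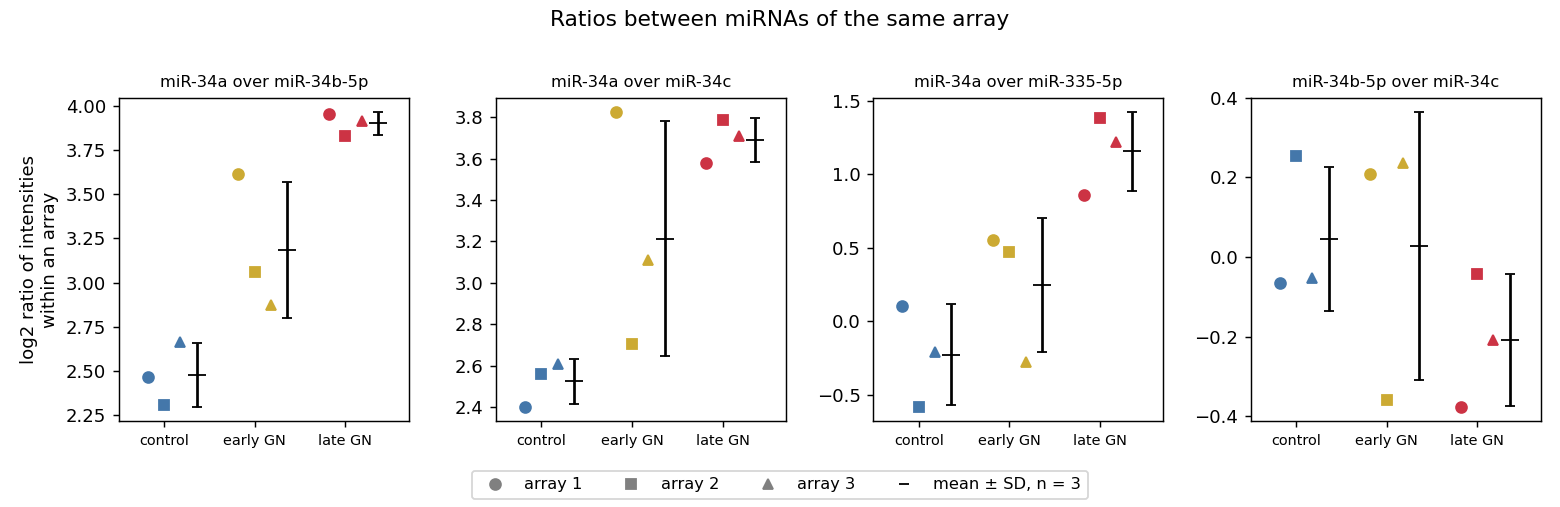
Log2 ratio of 2 members on the same array (y axis, a separate range in each panel) by group, with the 3 arrays as symbols and mean ± SD as bars. The ratio of miR-34a to miR-34b-5p rises from 4.94 to 6.34 on control arrays to 14.2 to 15.5 on late GN arrays (as plain ratios), and the ratio of miR-34b-5p to miR-34c overlaps between groups.

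miR-34b-5p and miR-34c were dim. In the scanner output, the miR-34a spot stood 28.0 to 60.8 SDs of the blank spots above their mean and the miR-335-5p spot 20.1 to 56.8 SDs. For miR-34b-5p it was 6.42 to 7.80 SDs in control, 1.37 to 5.75 in early GN and 2.37 to 3.38 in late GN. For miR-34c it was 5.01 to 6.91, 1.66 to 5.75 and 3.38 to 5.60. The values of these 2 probes in GN, and the size of their fold changes, therefore rest on signals near the background, and a background estimate that differs by a few units would move them.

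The opposite arms were at the edge of detection. miR-34b-3p was listed on 5 of 9 arrays, at 9.45 and 6.87 in control, 9.95 on early GN array 3, and 14.1 and 8.74 in late GN. Its scanner signal ran from 1.16 SDs below the blank mean (-1.16) to 2.18 SDs above, and on early GN array 3, where it has a value, the spot was at -0.24 SDs. miR-335-3p was listed on 2 arrays, at 7.70 on control array 2 and 8.57 on late GN array 1, and was listed on no early GN array. No comparison was made for these 2 members, since the presence of a value did not follow the signal of the spot.

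Of the passenger strands, miR-34a* was listed on late GN array 2 alone, at 5.91. miR-34c*, which has the seed of miR-34b-3p, was listed on 8 arrays, at 11.2 and 9.92 in control, 6.49, 10.9 and 15.3 in early GN, with 17.1, 16.5 and 13.6 in late GN. Its scanner signal was 0.74 to 3.44 SDs above the blanks. Both miR-34c and miR-34c* came within 2 blank SDs of the background on early GN array 1, so no ratio between the strands is given.

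**Figure D5:**
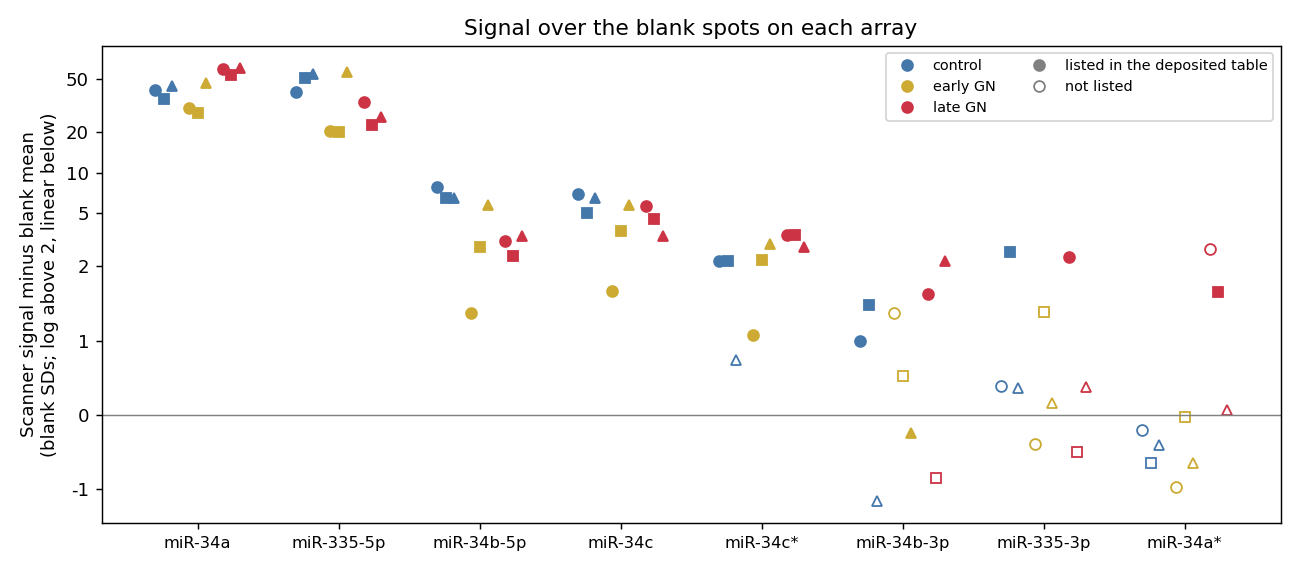
Scanner signal minus the mean of the blank spots, in SDs of the blank spots (y axis, logarithmic above 2 and linear below), for each member and the passenger strands on each array, with open symbols where the deposited table has no value. miR-34a and miR-335-5p stand at least 20.1 SDs above the blanks, miR-34b-5p and miR-34c at 1.37 to 7.80 SDs, and the others at 3.44 SDs or less.

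The seed relatives miR-449a, miR-449b and miR-449c, which mark multiciliated epithelium, were listed on 4, 3 and 2 arrays, and none on all 9. miR-449a was listed at 8.07 and 21.2 on control arrays 1 and 2, 5.85 on early GN array 2 and 16.3 on late GN array 1. Markers of multiciliated cells were therefore at or near the limit of detection in all groups.

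The other lists describe the same arrays and were chosen with results of these data known. miRNAs described as induced or processed through p53 had 7 members on all 9 arrays. None passed on the deposited scale in early or late GN against control. On the common-median scale, 1 fell in early GN (3.89% of all miRNAs) and 5 fell in late GN (29.9% of all), and the medians were -0.42 and -0.66. miR-16, a brake on the cell cycle, fell in both (-0.90 and -1.02, limma, adjusted p = 0.048 and 0.0086). miR-15a, of the same cluster family, fell in late GN (-0.66), as did miR-107 (-0.79) and the smooth muscle miRNA miR-145 (-0.85), whereas miR-192 was at 0.04 and miR-194 at 0.17.

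Of other miRNAs linked to senescence or ageing, 14 were on all 9 arrays. None passed as deposited in early or late GN against control. On the common-median scale, 2 fell in early GN (3.89% of all miRNAs), and in late GN 9 fell and 1 rose (29.9% and 32.1% of all), with medians of -0.31 and -0.59. miR-17 and miR-20a, of a cluster that promotes proliferation and declines in senescent cells, fell in both stages, by 0.59 and 0.88 log2 units in early GN and by 0.65 and 0.59 in late GN. miR-21, often raised in kidney injury, rose in late GN by 0.86 (limma, adjusted p = 0.019). miR-22 was at -0.45 in late GN and did not pass (limma, adjusted p = 0.16). miR-29a and miR-30a were among those that fell in late GN, at -0.69 and -1.07.

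A short list of miRNAs from imprinted loci, which leaves out the large imprinted cluster of chromosome 12, had 4 members on all 9 arrays. With a common median, 2 of the 4 rose in late GN (32.1% of all miRNAs). These were miR-483, from an intron of Igf2, at 0.81 (limma, adjusted p = 0.019), and miR-298, from the Gnas region, at 0.69 (limma, adjusted p = 0.0076). miR-296-5p was at 0.26 and miR-675-3p, from H19, at 0.39, and neither passed. None of the 4 passed as deposited in early or late GN against control. In the chromosome 12 cluster, miRNAs chosen after their values were seen lay on both sides of 0 in late GN with a common median. The sign of miR-335-5p was seen at -0.95 for miR-379, -1.26 for miR-376a, -0.94 for miR-487b and -0.46 for miR-127. The other sign was seen at 1.25 for miR-494, 1.12 for miR-668, 0.79 for miR-665 and 0.71 for miR-370. These are picked examples and not a count over the cluster. Of all 411 miRNAs, 193 lay below 0 in late GN on this scale, so finding both signs is nothing particular to imprinted miRNAs.

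The pattern over 9 arrays with a common median gives another view of the members. For miR-34b-5p the miRNAs with the highest Pearson r of log2 values were miR-27a (0.96), miR-27b (0.96) and miR-186 (0.96). For miR-34c they were miR-26b (0.94), miR-34b-5p (0.92) and miR-133a (0.90), so the partner of the shared locus was 2nd of 410. Seen from miR-34b-5p, miR-34c was 15th of 410. For miR-335-5p they were miR-93 (0.96), miR-98 (0.96) and miR-27b (0.95). miR-34a was most like miR-1249 (0.82), the probe for miR-486 and miR-3107 (0.74) and miR-339-5p (0.72), and its r with miR-34b-5p, miR-34c and miR-335-5p was -0.16, -0.11 and -0.11. On the deposited scale, where the shifts of whole arrays enter, the same 3 values were 0.53, 0.60 and 0.51. The miRNAs most like each member also changed there, to miR-30c for miR-34b-5p (0.98), miR-379 for miR-335-5p (0.97) and miR-222 for miR-34a (0.98), while miR-26b stayed first for miR-34c (0.96). These correlations describe 9 arrays that share groups and slides, and differences between the groups carry much of them.

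Marker miRNAs of glomerular cells moved on the same arrays. Over 8 podocyte-associated miRNAs, the summed deposited intensity was 67820 to 74870 in control, 29980 to 72280 in early GN and 43760 to 49560 in late GN, and with a common median 7 of 8 fell in late GN (29.9% of all miRNAs), with a median of -0.97. Both endothelial arms of miR-126 fell (median -0.88), as did 2 of 5 mesangial and smooth muscle miRNAs (median -0.44) and 1 of 3 tubule miRNAs (median 0.04). Leukocyte miRNAs summed to 215 to 267 in control, 93.9 to 372 in early GN and 363 to 529 in late GN, and 1 of 4, miR-142-3p, rose (32.1% of all miRNAs). Red blood cell miRNAs summed to 856 to 975 in control, 214 to 828 in early GN and 455 to 714 in late GN, and 1 of 2, miR-451, fell. On the deposited scale no miRNA of these marker lists passed in late GN against control. The part of cell composition in the changes of the members was not tested. In RNA of whole glomeruli, fewer cells of a type and less RNA per cell cannot be told apart.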

How the data were processed

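MicroRNAs were measured in isolated glomeruli of 9 mice with 3D-Gene mouse miRNA arrays. The authors scanned the arrays and extracted spot intensities with the 3D-Gene software, and deposited a table of globally normalized intensity per probe together with the scanner intensity of each array. The versions of this software are not given in the sources used here. The rule that left a probe without a value is not given there either. Each array carried 1818 blank spots, whose mean was 30.5 to 36.8 with an SD of 2.5 to 3.5. Listed values differed from the spot median minus the blank mean, times a factor per array, by a median of 2.5 to 4.1 units, which matters for dim probes. The number of arrays limits the precision.

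The test was limma 3.58.1 (R 4.3.3), applied to the log2 deposited intensity of 411 miRNAs with a value on every array, in a single fit of all groups with 6 residual degrees of freedom. The moderation gave every miRNA the same variance, so the SE of a log2 fold change between 2 groups was 0.444 for each. The spread among the early GN arrays entered this SE in every comparison, also in late GN against control. Tests were 2-sided, with Benjamini-Hochberg adjustment over the 411 miRNAs within each comparison and a threshold of 0.05. Control was set against early GN, late GN and both together, and the 2 stages against each other. For single members an exact permutation test over arrays was added (scipy 1.17.1). The fit was tested on simulated data without shifts of whole arrays. That simulation does not show how the fit behaves with the array shifts of the deposited scale.

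The members, lists, tests and alternatives were chosen with earlier results of these data known. The text names all 6 members, their passenger strands and the 3 miRNAs most like each member over 9 arrays. It also names up to 4 members of each list with the smallest p in early or late GN against control. miR-192 and miR-194 were named beyond that rule. miR-29a, miR-30a, miR-142-3p, miR-451, miRNAs of the chromosome 12 cluster, the ratios between members and the combinations of the common median with another alternative were added after seeing the data. Alternatives were other scalings (common median, normexp with offset 50 and quantile, 75th percentile of detected or all probes, spike controls). Others were the series table as deposited, a pseudocount of 16, leaving out each array, and replicate number or slide as a block. Further alternatives were a fit of the groups compared only, an intensity trend, Dunnett's test (mvtnorm 1.3.3) and the methods' t-test. A wider set of 486 miRNAs added some that were not listed on all 9 arrays. Whether arrays come from separate mice follows the methods, which state 3 mice a group.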

Additional observations from a re-analysis of the deposited data

Results flagged for a closer look

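The passenger strand miR-34c*, outside the compared members, was above the highest control value of 11.2 on all late GN arrays, as were 49.1% of the miRNAs listed on all 9 arrays, with a lowest late GN value of 13.6 on the deposited scale. Only 2 control arrays had a value, and it was a dim probe, at 0.74 to 3.44 blank SDs over the 9 arrays, and its log2 fold change in late GN over the wider set of 486 miRNAs was 0.57 (limma, adjusted p = 0.40).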

How the results depend on the processing

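No member passed on the deposited scale, and the count of called members moved with the setting, always as lower against control. In early GN against control, 2 were lower with a common median, 1 with normexp and quantile and 1 with the 75th percentile of all probes. Leaving out 1 array in turn gave 0 to 4. In late GN against control, 3 were lower with a common median, with normexp and quantile, with the 75th percentile of all probes, in the fit of only the groups compared and by the methods' t-test, 2 with the 75th percentile of detected probes and 1 with a pseudocount of 16, and 0 to 3 without 1 array, where 3 came without early GN array 3 and 1 without early GN array 1. Both stages together gave 3 lower with a common median, normexp and quantile or the 75th percentile of all probes, 2 with that of detected probes, 1 with a pseudocount of 16 and 0 to 3 without 1 array. Late GN against early GN gave 0 called higher, and 0 to 4 without 1 array. Dunnett's test, the spike controls, slide as a random block, the intensity trend, the wider set and the series table gave 0 calls. At an unadjusted p under 0.05, the methods' t-test called 3 members lower in late GN (18.0% of all miRNAs), 0 in early GN and 2 over both stages (7.54%), and Dunnett's test called 0 at either stage. Apart from leaving out an array, the cause was not tested.

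Taking the common median as the base, the 2 early GN calls became 1 with the replicate block, 0 in the fit of only the groups compared and 0 to 3 without 1 array, the 3 without early GN array 3. Slide as a random block gave 2 called lower in late GN against early GN, in a fit whose slide correlation was estimated at -0.342, which makes the SE smaller. Replicate numbers did not pair the arrays: same-number arrays deviated with r of -0.224 to 0.34, above 0.1 in 4 of 9 pairs. With the replicate block 0 members passed on the deposited scale, and 3 still fell in late GN with a common median, so no other call changed.

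Some small differences changed sign. Late GN against early GN was 0.14 for miR-34b-5p and became -0.56 with a common median, -0.11 with normexp and quantile, -0.41 and -0.71 with the 75th percentile of detected and of all probes, and -0.28 to 0.70 without 1 array. For miR-34c it was 0.37 and became -0.32, -0.07, -0.04 and -0.33 in the same order, and -0.13 to 0.83 without 1 array. For miR-335-5p it was -0.05, with -0.40 to 0.61 without 1 array. miR-34a in late GN, 0.38 as deposited, was -0.09 with the 75th percentile of all probes, and with a common median was -0.05 to 0.16 without 1 array. Over both stages it was -0.05 and became 0.06 with normexp and quantile, 0.05 with the 75th percentile of detected probes, 0.06 with the spike controls, -0.25 to 0.06 without 1 array and, with a common median (-0.01), -0.13 to 0.08, with 0.02 without control array 1 and 0.03 without early GN array 2. The low signal of miR-34b-5p and miR-34c over the blank spots limits the size of their changes more than that of miR-34a and miR-335-5p.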
